A study of Homo sapiens with 12 samples.

Results

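Negative feedback genes of MAP kinase signaling were followed in leukemia cells incubated with OGP46. The set held 6 dual-specificity phosphatase genes (DUSP1, DUSP2, DUSP4, DUSP5, DUSP6 and DUSP10), 2 Sprouty genes (SPRY1 and SPRY2) and 2 Spred genes (SPRED1 and SPRED2). They were taken by gene symbol from the mRNA-seq tables, where all 10 were found among 20003 genes. Growth factor and cytokine receptors activate RAS, and RAF, MEK and ERK pass the signal on to transcription factors. Dual-specificity phosphatases of this group remove the activating phosphates from ERK, JNK or p38, whereas Sprouty and Spred proteins act upstream, at RAS and RAF. Many of these genes are themselves switched on by ERK, so that their mRNA follows the pathway they restrain.

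The samples came from NB4, an acute promyelocytic leukemia line with the PML-RARα fusion, and from Kasumi-1, an AML line with the AML1-ETO fusion. Each line gave 3 control samples that received DMSO and 3 samples incubated with 1 μM OGP46, a synthetic diterpenoid derived from oridonin, 12 samples in all. The time is 48 h in the labels and in the study's methods, although the legend of the study's mRNA-seq plots gives a longer time. NB4 and Kasumi-1 are 1 cell line each, and no engineered allele was added to either. The same legend calls its figures representative of 3 independent experiments. Whether the 3 samples of a group were those experiments, or separate cultures, is not stated, so the p-values measure only the spread between these samples. Levels are FPKM, fragments scaled by exon length and by the number of mapped fragments. The depth of the libraries is unknown.

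Between 9339 and 9746 genes per sample reached 1 FPKM. The mean correlation of a sample with the others of its group was 0.986 to 0.995, and the lowest of any pair was 0.985. The summed FPKM were 248207 to 256268 in the NB4 controls and 263341 to 291523 in NB4 with OGP46. In NB4 the median log2 fold change over the 11750 genes tested was 0.18, which median centring moved to -0.04, so the changes in NB4 are also given relative to this median. The labels of the lines were checked on fixed markers. The summed level of 6 Kasumi-1 markers, among them KIT and CD34, was 274.5 to 310.1 FPKM in the Kasumi-1 controls. It was 0.625 to 3.78 FPKM in the NB4 controls, where no marker was at 0 in all 3 samples. In NB4 with OGP46 it was 0.638 to 1.32 FPKM, and TRH was at 0 in all 3 samples. Among the NB4 controls, CD34 and KIT were highest in sample 3, at 1.31 and 1.22 FPKM. In samples 1 and 2, CD34 was at 0.0601 and 0.154 FPKM, and KIT at 0.0953 and 0.532 FPKM. The source of this signal was not tested. The summed level of 3 markers of promyelocytic leukemia was 31.4 to 38.2 FPKM in the NB4 controls and 17.5 to 23.3 FPKM in the Kasumi-1 controls, and HGF, 1 of the 3, was lower in NB4.

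DUSP6 was the gene of the group with the highest mRNA level in each of the 4 conditions, and OGP46 raised it in NB4. DUSP6 encodes a cytoplasmic phosphatase with a strong preference for ERK. The gene lies on the minus strand at chr12:89347232-89353271 (GRCh38), and 1875 bases of its exons are also exons of the antisense gene AC024909.2, which has no row of its own in the tables. The strand setting of the counting is not given in the sources used here, so reads of the 2 genes cannot be told apart. In NB4, the DUSP6 level was 41.9, 25.7 and 33.9 FPKM in control samples 1, 2 and 3, and 89.0, 56.0 and 76.4 FPKM with OGP46. The groups did not overlap, and sample 2 was the lowest in both of them. The mean rose from 33.8 ± 8.09 to 73.8 ± 16.7 FPKM (SD, n = 3), a log2 fold change of 1.13 with an SE of 0.207 (limma, adjusted p = 0.0385). This change was larger than that of 99.1% of the genes tested, and it lay 0.95 above the median of all genes on the log2 scale. The ratio of OGP46 to control within same-numbered samples was 2.13 to 2.26. With the replicate number as a block, the adjusted p of limma was 6.47e-06.

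DUSP5, which encodes a nuclear phosphatase specific for ERK, was the other gene of the group that rose in NB4. Its level was 1.26, 1.40 and 1.40 FPKM in the controls and 2.65, 2.59 and 2.32 FPKM with OGP46. The samples of each group lay close together and the groups did not overlap. The mean rose from 1.35 ± 0.0792 to 2.52 ± 0.179 FPKM (SD, n = 3), a log2 fold change of 0.85 with an SE of 0.122 (limma, adjusted p = 0.0298) and 0.67 above the median of all genes. The gene lies on the plus strand at chr10:110497838-110511544. In all, 2 of the 10 feedback genes passed the threshold in NB4 (adjusted p below 0.05 with a log2 fold change of 0.58 or more in size), both higher, beside 1.45% of all genes tested that rose and 0.111% that fell. Without control sample 1, 2 or 3, or without OGP46 sample 1 or 3, neither gene passed, with an adjusted p of 0.0512 to 0.157 for DUSP6 and 0.0516 to 0.134 for DUSP5 in limma, but in those fits only 0 to 2 of all genes tested passed, against 183 with every sample. The log2 fold change was 0.94 to 1.31 for DUSP6 and 0.81 to 0.91 for DUSP5 when any 1 sample was left out. Under TPM scaling, median centring and quantile normalization 0 of the 11750 genes tested passed in limma, while 1764 to 1942 had an unadjusted p below 0.05. Log2 fold changes were then 1.00, 0.91 and 0.98 for DUSP6 (limma, adjusted p = 0.132 to 0.166) and 0.73, 0.63 and 0.64 for DUSP5 (limma, adjusted p = 0.0995 to 0.162).

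DUSP4 encodes a nuclear phosphatase that acts on ERK and also on JNK and p38. Its level in NB4 was 1.44, 0.750 and 1.45 FPKM in the controls and 2.53, 1.44 and 2.63 FPKM with OGP46. Sample 2 was the lowest on both sides, and the groups overlapped because OGP46 sample 2 lay at the level of control samples 1 and 3. The same-numbered ratios were narrower, 1.76 to 1.92. The log2 fold change of 0.82, with an SE of 0.295, did not pass without the block (limma, adjusted p = 0.121), and passed with it (limma, adjusted p = 0.00121). With the block, 3 of the 10 genes (DUSP4, DUSP5 and DUSP6) were higher in NB4 and 0 were lower, beside 5.06% of all genes higher and 1.15% lower. The same 3 genes passed with the block after median centring, with a log2 fold change of 0.91 for DUSP6, 0.63 for DUSP5 and 0.60 for DUSP4.

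**Figure D1:**
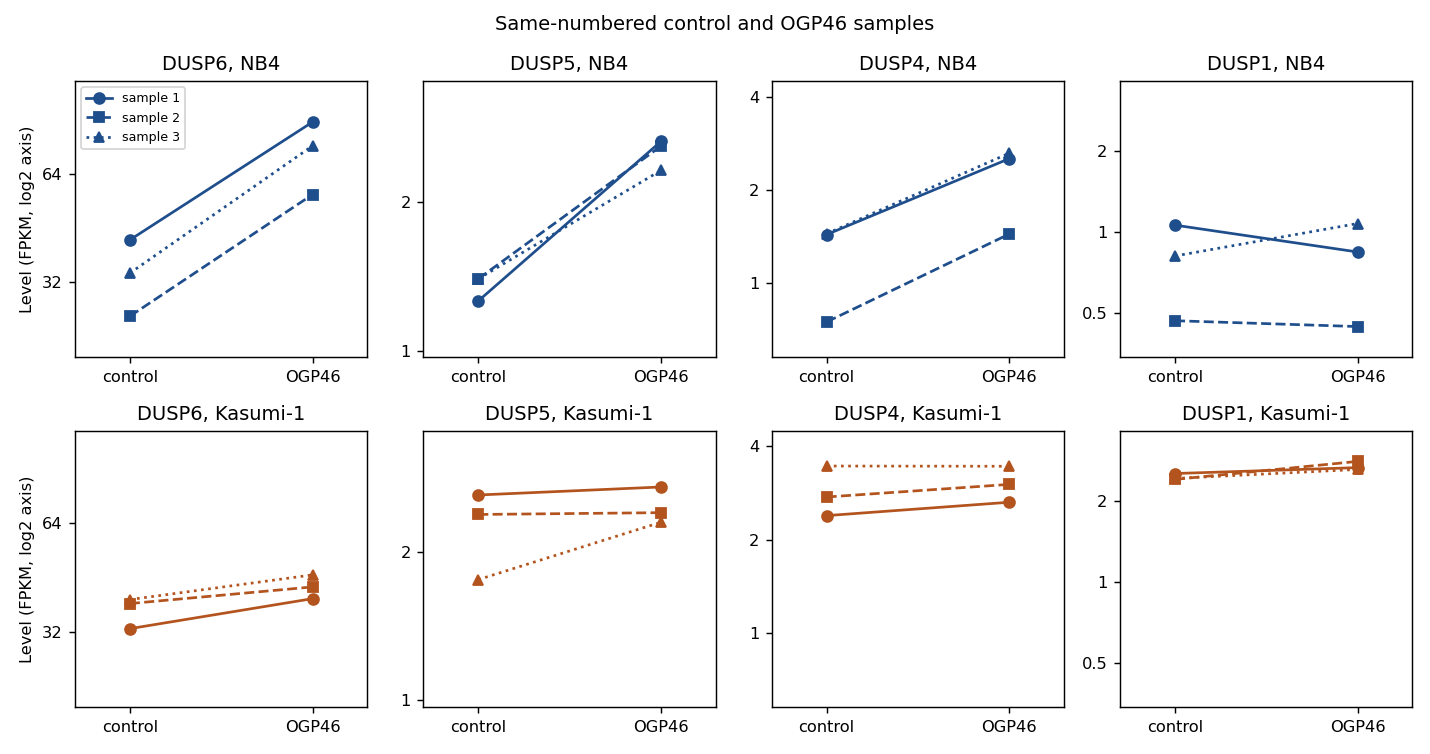
Level in FPKM, on a log2 axis, of DUSP6, DUSP5, DUSP4 and DUSP1 in control and OGP46 samples of NB4 (upper row) and Kasumi-1 (lower row), with a line joining samples of the same number. In NB4 the 3 lines of DUSP6 run nearly parallel, with ratios of 2.13 to 2.26, those of DUSP4 do so with sample 2 lower on both sides, and those of DUSP1 go up once and down for the other 2 samples.

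DUSP2 encodes a nuclear phosphatase of blood cells that acts on ERK and p38, and it was the second most abundant gene of the group in NB4. Its level was 12.7, 10.2 and 12.5 FPKM in the controls and 17.7, 13.6 and 15.9 FPKM with OGP46. The groups did not overlap, and sample 2 was again the lowest in both. The log2 fold change was 0.41 with an SE of 0.126 (limma, adjusted p = 0.0931, and 0.00771 with the block), below the size required for a call either way. DUSP10, whose product acts on JNK and p38 rather than ERK, was at 0.859, 0.566 and 0.731 FPKM in the controls and at 1.02, 1.03 and 1.08 FPKM with OGP46. These groups did not overlap either. The log2 fold change of DUSP10 was 0.50 with an SE of 0.175 (limma, adjusted p = 0.115, and 0.0454 with the block). Among the fits run, it passed in 1, with the block and without pair 1.

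DUSP1 had the lowest log2 fold change of the 4 nuclear phosphatases in NB4. It encodes a nuclear phosphatase of JNK, p38 and ERK and is an immediate early gene, induced within minutes by many stresses and growth factors. Its level in NB4 was 1.06, 0.468 and 0.814 FPKM in the controls and 0.842, 0.445 and 1.08 FPKM with OGP46. The groups overlapped almost entirely, with sample 2 the lowest in both. The log2 fold change was 0.00 with a 95% interval of -0.79 to 0.79 (limma, adjusted p = 0.998). The sign of this value turned with the scaling, and the interval includes changes of the size required for a call.

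The 4 genes that act at RAS and RAF gave small values in NB4, and 0 of them passed with or without the block. SPRY1 was at 3.45, 3.55 and 3.38 FPKM in the controls and at 3.03, 4.996 and 4.77 FPKM with OGP46, so that OGP46 sample 1 lay below all controls and the other 2 above them. Its log2 fold change was 0.26 with a 95% interval of -0.16 to 0.68 (limma, adjusted p = 0.355). SPRY2, the paralog with the higher level in control cells, was at 4.57, 3.55 and 4.86 FPKM in the controls and at 4.19, 3.81 and 4.14 FPKM after OGP46, giving a log2 fold change of -0.08 with an interval of -0.39 to 0.22 (limma, adjusted p = 0.685). SPRY2 was the only gene of the 10 with a log2 fold change below 0 in NB4, and it reached 0.00 without control sample 3. Sprouty proteins hold back RAS activation downstream of receptor tyrosine kinases.

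SPRED1 and SPRED2 encode membrane proteins that bring the RAS inhibitor neurofibromin to RAS. SPRED1 was at 2.05, 1.59 and 1.99 FPKM in the NB4 controls and at 2.42, 1.82 and 2.58 FPKM after OGP46, giving a log2 fold change of 0.26 (limma, adjusted p = 0.323). SPRED2 was at 8.16, 7.61 and 8.02 FPKM in the controls and at 8.63, 9.97 and 9.82 FPKM with OGP46. The SPRED2 groups did not overlap, but the log2 fold change of 0.25 lay only 0.07 above the median of all genes (limma, adjusted p = 0.125). In all, 5 of the 10 genes (DUSP2, DUSP5, DUSP6, DUSP10 and SPRED2) had all OGP46 samples above all controls and 0 had them below, beside 32.7% and 1.91% of all genes tested. The median log2 fold change of the 10 genes was 0.34, beside 0.18 for all genes.

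**Figure D2:**
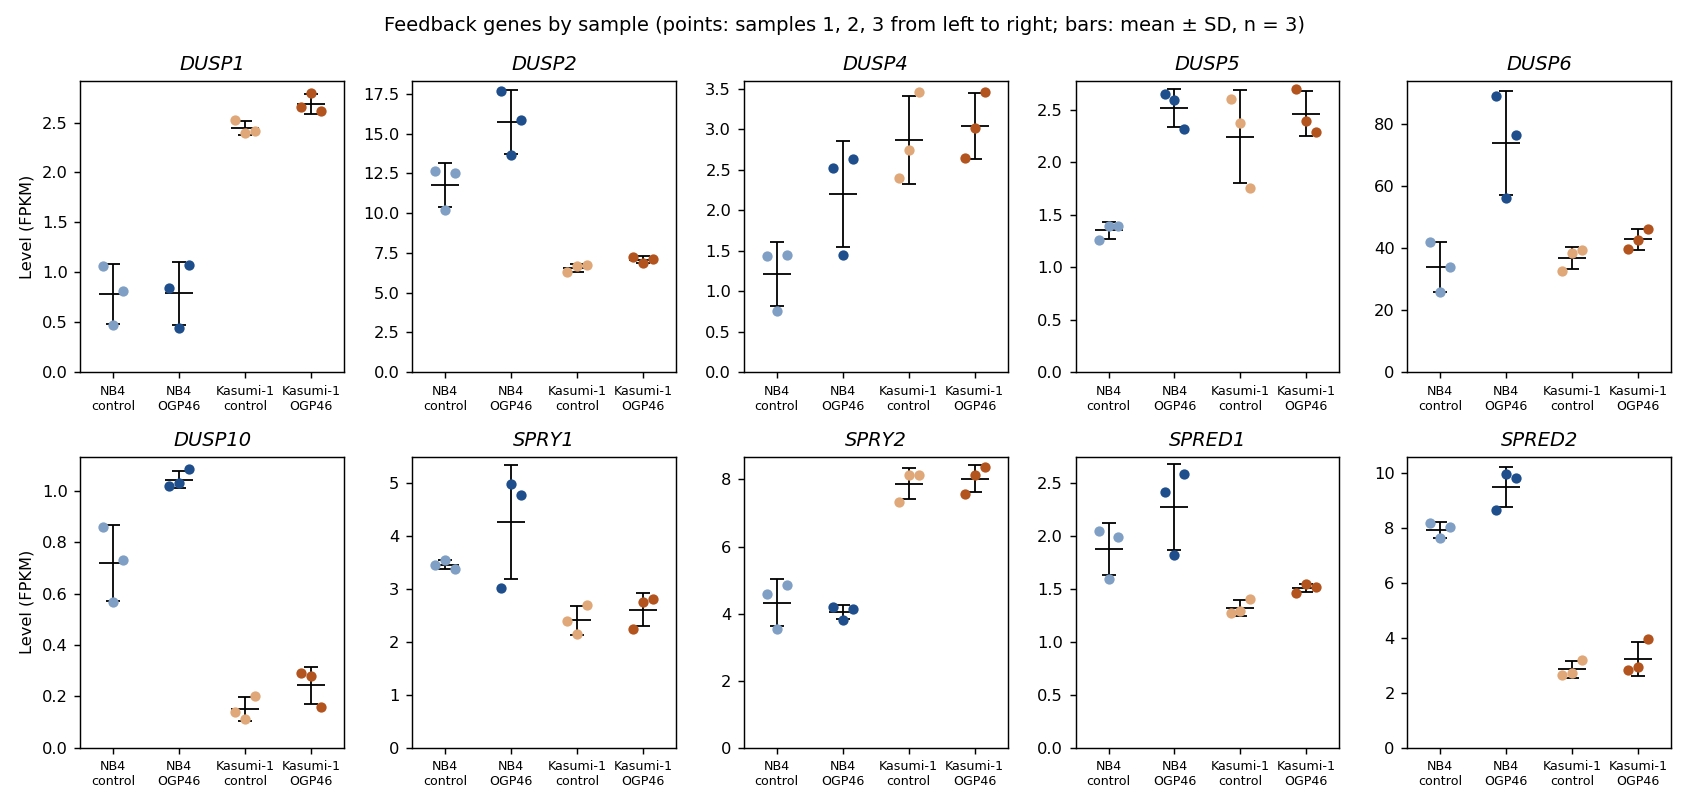
Level in FPKM of each of the 10 feedback genes, on a linear axis from 0, in the 12 samples, with points for samples 1, 2 and 3 from left to right and bars for the mean ± SD (n = 3). DUSP6 and DUSP5 separate control and OGP46 samples of NB4 clearly, while DUSP1, SPRY2 and SPRED2 differ more between the lines than with OGP46.

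Other cell state markers also moved in NB4. Of 8 monocyte and macrophage markers tested, 4 rose (ITGAM, ITGAX, CD68 and FCN1) and 0 fell, beside 1.45% and 0.111% of all genes tested. None of the 9 listed was at 0 in all samples of a group. Their summed level was 288.4 to 410.0 FPKM in the controls and 291.5 to 398.4 FPKM with OGP46. Most of this sum was LYZ, at 390.9, 270.4 and 293.8 FPKM in the controls and 314.0, 262.4 and 367.1 FPKM with OGP46. The sum therefore says little about the other markers. With the block, 6 of the 8 rose and 4 of 5 primary granule genes fell, beside 5.06% of all genes that rose and 1.15% that fell. The summed level of the granule genes went from 2605 to 3945 FPKM in the controls to 1586 to 2812 FPKM with OGP46. Of these 5 genes, ELANE was at 0.5035, 3.30 and 14.5 FPKM in control samples 1, 2 and 3. With OGP46 ELANE was at 0.321, 0.430 and 1.39 FPKM. The summed level of 5 proliferation markers was 425.6 to 504.1 FPKM in the controls and 490.8 to 553.2 FPKM with OGP46. Their part in the change of DUSP6, DUSP5 and DUSP4 was not tested, and in such bulk samples a shift in the kinds of cells and a change of mRNA per cell cannot be told apart.

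In Kasumi-1, 0 of the 10 feedback genes passed the threshold, with or without the block. Of all 11835 genes tested, 0.0169% rose and 0.0169% fell without the block, and 0.27% rose and 0.346% fell with it. DUSP6 was at 32.6, 38.3 and 39.3 FPKM in the controls and at 39.5, 42.6 and 46.0 FPKM with OGP46. The groups were set apart by a gap far smaller than their own range, with a mean of 36.7 ± 3.60 against 42.7 ± 3.24 FPKM (SD, n = 3). The log2 fold change was 0.22 with a 95% interval of 0.03 to 0.41 (limma, adjusted p = 0.26, and 0.0605 with the block). It was positive in all 3 same-numbered pairs, with ratios of 1.11 to 1.21.

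DUSP5 in Kasumi-1 was at 2.60, 2.38 and 1.76 FPKM in the controls and at 2.70, 2.40 and 2.29 FPKM after OGP46, giving a log2 fold change of 0.14 with an interval of -0.18 to 0.47 (limma, adjusted p = 0.661). DUSP4 was at 2.39, 2.75 and 3.46 FPKM in the controls and at 2.64, 3.02 and 3.45 FPKM after OGP46, giving a log2 fold change of 0.09 with an interval of -0.24 to 0.41 (limma, adjusted p = 0.799). Both sets of groups overlapped, and both values changed sign when 1 sample was left out. DUSP10 had the highest log2 fold change in this line, 0.44, at levels of only 0.112 to 0.289 FPKM (limma, adjusted p = 0.434). The other 6 genes had log2 fold changes between 0.03 and 0.18. For 4 genes (DUSP1, DUSP2, DUSP6 and SPRED1) every OGP46 sample exceeded every control, and for 0 genes every OGP46 sample lay below, beside 17.4% and 5.23% of all genes. The median of the 10 genes was 0.14, beside 0.05 for all genes. An unadjusted p below 0.05 was found for 1 of the 10 (DUSP6), beside 15.6% of all genes in this line, and for 6 of the 10 in NB4, beside 29.1% of all genes there.

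**Figure D3:**
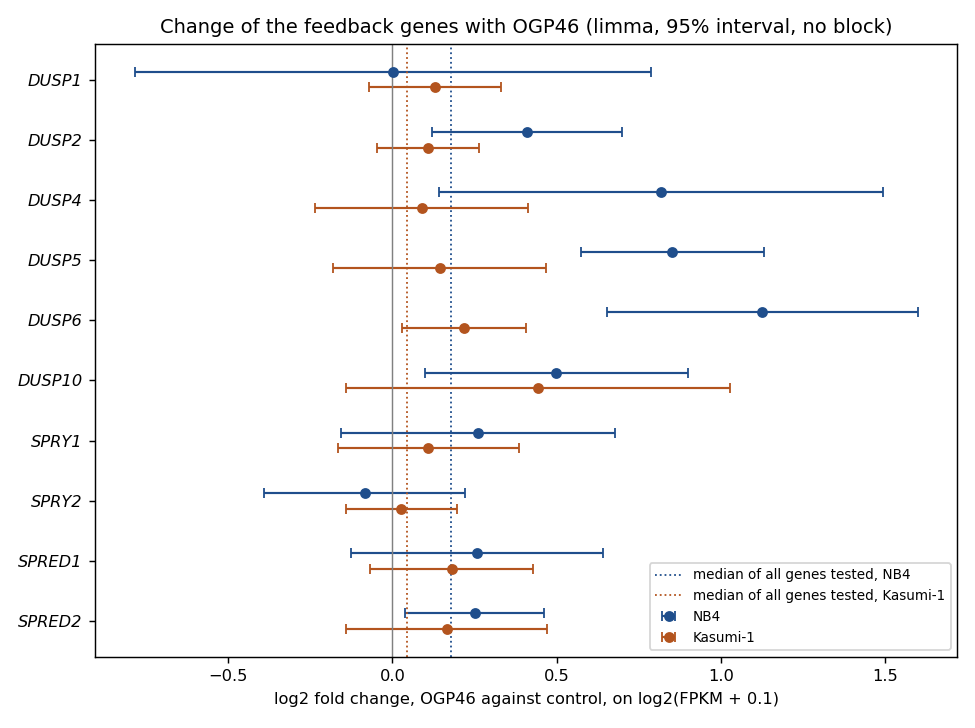
Log2 fold change of each feedback gene with OGP46 in NB4 and Kasumi-1, with 95% intervals from limma without the block, and dotted lines at the median of all genes tested (0.18 in NB4, 0.05 in Kasumi-1). DUSP6, DUSP5 and DUSP4 lie furthest to the right in NB4 and between 0.09 and 0.22 in Kasumi-1, and the intervals of DUSP1, SPRY1, SPRY2 and SPRED1 include 0 in both lines.

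The difference between the lines was tested as the interaction of line and OGP46 over the 12 samples. Without the block, 0 of the 10 genes and 0 of the 12309 genes tested passed in limma, while 1348 genes had an unadjusted p below 0.05, among them DUSP5 and DUSP6. The change of DUSP6 was 0.91 larger in NB4 on the log2 scale, with an SE of 0.251 (limma, adjusted p = 0.227), and passed with the block (limma, adjusted p = 0.0034). That of DUSP4 was 0.73 larger, with an SE of 0.367 (limma, adjusted p = 0.481), and also passed with the block (limma, adjusted p = 0.0279). That of DUSP5 was 0.71 larger, with an SE of 0.195 (limma, adjusted p = 0.226, and 0.057 with the block). The share of all genes that passed with the block was 1.81% for a larger change in NB4 and 0.114% for a larger one in Kasumi-1. In fits with the block that left out 1 same-numbered pair of either line, DUSP6 passed each time (limma, adjusted p = 0.00823 to 0.0215), whereas DUSP4 did not (limma, adjusted p = 0.0525 to 0.105). After median centring, the blocked fit called DUSP6 (limma, adjusted p = 0.00392) and not DUSP4 (limma, adjusted p = 0.0699). For the other 7 genes the difference lay between -0.13 and 0.30. Of the other ERK pathway and output genes, 0 passed the interaction test without the block and 2 with it, PHLDA1 (1.47 larger in NB4, limma, adjusted p = 0.00423) and MAP2K1 (0.46 larger, limma, adjusted p = 0.0492). PHLDA1 also passed with the block and median centring (limma, adjusted p = 0.0176) and, without the block, with a pseudocount of 1 (limma, adjusted p = 0.021).

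The lines also differed before OGP46 was given, and for 8 of the 10 genes, all but DUSP5 and DUSP6, the log2 difference was larger in size than the log2 fold change in NB4. In the controls, 3 of the 10 genes were higher in NB4 (DUSP2, DUSP10 and SPRED2) and 4 were lower (DUSP1, DUSP4, DUSP5 and SPRY2), beside 22.7% and 29.7% of all 12302 genes tested. Groups did not overlap for 5 genes higher in NB4 and 4 lower, beside 34.6% and 43.1% of all genes. Of those lower in NB4, DUSP1 differed most, with 2.45 ± 0.0662 FPKM in Kasumi-1 against 0.781 ± 0.298 FPKM in NB4 (SD, n = 3), a log2 difference of -1.59 (limma, adjusted p = 0.000253). DUSP10 was at 0.151 ± 0.0451 FPKM in Kasumi-1 and at 0.719 ± 0.147 FPKM in NB4 (SD, n = 3), a log2 difference of 1.71 (limma, adjusted p = 7.92e-05). SPRED2 was higher in NB4 by 1.45, DUSP2 by 0.83, SPRY1 by 0.51 and SPRED1 by 0.47 on the log2 scale, the last 2 below the size required. The log2 difference of DUSP4 was -1.22, that of SPRY2 was -0.86 and that of DUSP5 was -0.68. DUSP5 fell short of the size required without Kasumi-1 control sample 1 (-0.57) and under TPM scaling (-0.48), median centring (-0.54) and quantile normalization (-0.40). Under these 3 scalings SPRY1 (0.65 to 0.74) and SPRED1 (0.61 to 0.76) passed, and SPRY1 also did so without Kasumi-1 control sample 3 (0.59). DUSP6 had nearly the same level in both controls, 33.8 and 36.7 FPKM, with overlapping samples and a log2 difference of -0.14 that had an interval of -0.51 to 0.22 (limma, adjusted p = 0.437).

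The order of the levels, comparable between genes because FPKM are given per length, followed from these differences. In the NB4 controls it was DUSP6, DUSP2, SPRED2, SPRY2, SPRY1 and SPRED1, each apart from the next, and then DUSP5, DUSP4, DUSP1 and DUSP10, whose neighbours overlapped. In the Kasumi-1 controls SPRY2 was second, with 7.88 ± 0.466 FPKM (SD, n = 3), followed by DUSP2. DUSP4 and SPRED2 overlapped there, as did DUSP1 with SPRY1 and SPRY1 with DUSP5, and DUSP10 was last. With OGP46 the NB4 levels of DUSP5 and DUSP4 came to 2.52 and 2.20 FPKM, beside 2.25 and 2.87 FPKM in the Kasumi-1 controls. DUSP6 in NB4 with OGP46 was higher than in any Kasumi-1 sample, all 3 samples lying above 46.0 FPKM.

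None of the other MAP kinase phosphatase genes passed with OGP46 in either line. DUSP7, the closest relative of DUSP6 and likewise a cytoplasmic ERK phosphatase, was at 18.2, 22.1 and 20.7 FPKM in the NB4 controls and at 17.7, 24.2 and 20.3 FPKM with OGP46. The groups overlapped fully, and the log2 fold change was 0.02 with an SE of 0.127 (limma, adjusted p = 0.929). DUSP16 and DUSP9 were at or below 1.28 FPKM in NB4, with log2 fold changes of 0.50 and 0.10, and did not pass (limma, adjusted p = 0.279 and 0.864). DUSP8 was under the filter on low values in both lines. In Kasumi-1, DUSP7, DUSP9 and DUSP16 had log2 fold changes of -0.18, -0.28 and 0.04, and none passed (limma, adjusted p = 0.3, 0.341 and 0.863). SPRY4 was the only other Sprouty or Spred gene above the filter. It was at 2.63 ± 0.422 FPKM in the NB4 controls and at 3.22 ± 0.427 FPKM with OGP46 (SD, n = 3; limma, adjusted p = 0.247), and at 0.123 ± 0.0997 FPKM in the Kasumi-1 controls. SPRY3 was listed at 0 in all 6 NB4 samples.

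Summed over the 10 phosphatase genes DUSP1, DUSP2, DUSP4 to DUSP10 and DUSP16, the level in NB4 was 62.1 to 78.3 FPKM in the controls and 100.4 to 132.6 FPKM with OGP46. DUSP6 made up 47.2 ± 6.05% of this sum in the controls and 62.0 ± 5.78% with OGP46 (SD, n = 3). The other 9 genes together went from 37.1 ± 1.27 to 44.3 ± 0.611 FPKM, so most of the added phosphatase mRNA was DUSP6. In Kasumi-1 the share of DUSP6 was 52.3 ± 2.04% in the controls and 56.4 ± 1.47% with OGP46, and the other 9 genes were at 33.4 ± 1.05 and 33.0 ± 0.958 FPKM (SD, n = 3). The 4 Sprouty and Spred genes together were at 17.6 ± 1.12 and 20.1 ± 1.59 FPKM in NB4 and at 14.5 ± 0.917 and 15.4 ± 1.28 FPKM in Kasumi-1. No test was made on these sums, which rest on the same samples as the values of the single genes.

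**Figure D4:**
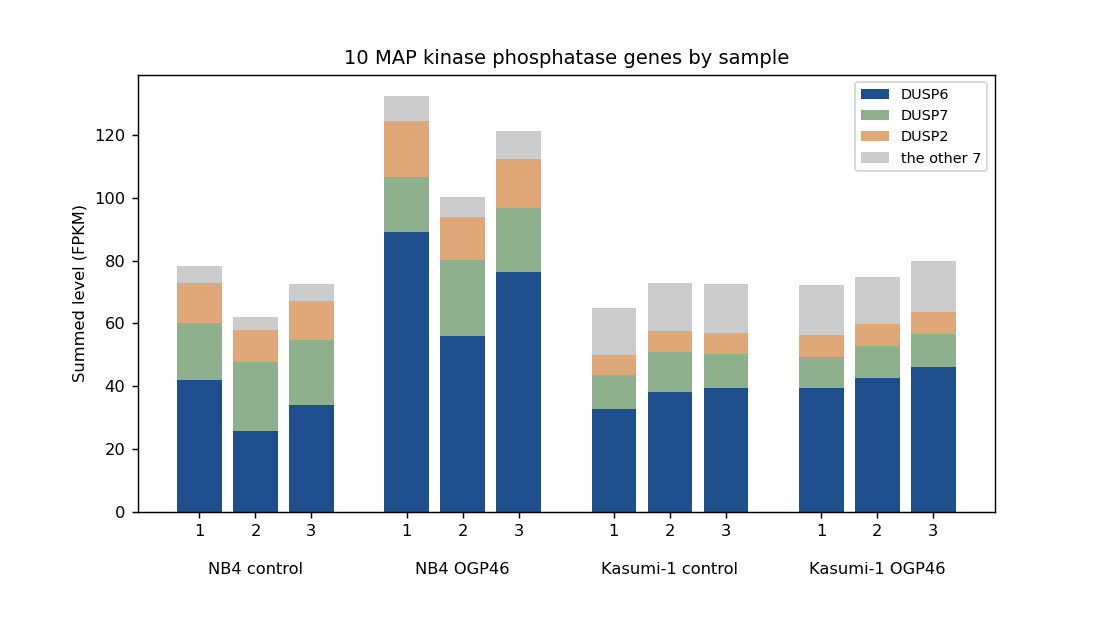
Summed level in FPKM of 10 MAP kinase phosphatase genes in each of the 12 samples, stacked as DUSP6, DUSP7, DUSP2 and the other 7, on an axis from 0. The DUSP6 part grows in all 3 NB4 samples with OGP46, whereas the DUSP7 part stays between 17.7 and 24.2 FPKM in NB4.

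The pathway on which these genes act was read from lists of its parts. Of 16 genes of the RAS to ERK cascade, 0 passed in either line, with a median log2 fold change of 0.26 in NB4 and 0.08 in Kasumi-1. The medians of all genes tested were 0.18 and 0.05. Every OGP46 sample exceeded every control for 14 of the 16 in NB4 and 7 in Kasumi-1, beside 32.7% and 17.4% of all genes. For 0 of the 16 every OGP46 sample lay below, beside 1.91% and 5.23% of all genes. Of 10 other RAS and ERK inhibitors and of 11 genes of the JNK and p38 cascade (10 of them tested in Kasumi-1), 0 passed, with medians of 0.28 and 0.25 in NB4 and 0.09 and 0.13 in Kasumi-1. Of 16 listed output genes of ERK, 14 were tested in NB4, and 2 of them rose and 0 fell, with a median of 0.51. Of all genes tested in NB4, 1.45% rose and 0.111% fell. Both output genes are named next, together with those that passed with the block.

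EGR1, an immediate early zinc finger transcription factor induced through ERK, was at 0.736, 0.996 and 0.950 FPKM in the NB4 controls and at 1.53, 2.69 and 3.15 FPKM with OGP46. The groups did not overlap, and the log2 fold change was 1.31 with an SE of 0.255 (limma, adjusted p = 0.0434, and 0.000218 with the block). PHLDA1, a pleckstrin homology-like protein gene induced by ERK, was at 2.24, 1.74 and 1.70 FPKM in the controls and at 6.06, 4.48 and 4.70 FPKM with OGP46. This was a log2 fold change of 1.38 with an SE of 0.158 (limma, adjusted p = 0.0226), again with no overlap. With the block, 6 of the 14 passed, all higher, beside 5.06% of all genes that rose and 1.15% that fell. The block added EGR2 (1.05), FOS (0.85), FOSL1 (0.65) and IER3 (1.35 on the log2 scale, with overlapping groups). EGR2 was at or below 0.232 FPKM in every sample. EGR1 and PHLDA1 did not pass without control sample 1, 2 or 3 or without OGP46 sample 1 or 3, where 0 to 2 of all genes passed, nor under the 3 other scalings, where 0 of all genes did. Under TPM scaling, median centring and quantile normalization the log2 fold change was 1.198, 1.09 and 1.11 for EGR1 and 1.26, 1.16 and 1.16 for PHLDA1. Leaving out any 1 sample gave 1.11 to 1.61 for EGR1 and 1.25 to 1.497 for PHLDA1. Without OGP46 sample 2, 4 genes of the lists passed, EGR1, PHLDA1, JUNB and MAP2K1. MYC and CCND1, which also respond to ERK, had log2 fold changes of -0.26 and -0.10 (limma, adjusted p = 0.255 and 0.846).

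In Kasumi-1, 12 of the 16 output genes were tested and 0 passed without the block. EGR1 was at 0.784, 1.18 and 0.862 FPKM in the controls and at 1.80, 1.80 and 1.73 FPKM with OGP46, with no overlap. Its log2 fold change of 0.87, with an SE of 0.152, passed with the block (limma, adjusted p = 0.0649, and 0.0122 with the block), and it was the 1 gene of these lists to do so in this line. It also passed without control sample 2 and under TPM scaling or median centring. With the block, 0.27% of all genes tested in this line rose and 0.346% fell. PHLDA1 was at 0.347 ± 0.0520 FPKM in the controls and at 0.321 ± 0.0738 FPKM with OGP46 (SD, n = 3), a log2 fold change of -0.09 (limma, adjusted p = 0.862). ETV5, an ETS factor that responds to ERK, had a log2 fold change of 0.53 in Kasumi-1 and 0.47 in NB4, below the size required in both (limma, adjusted p = 0.104 and 0.0924). It was named after its values were seen, as were JUNB, MAP2K1, MYC and CCND1.

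**Figure D5:**
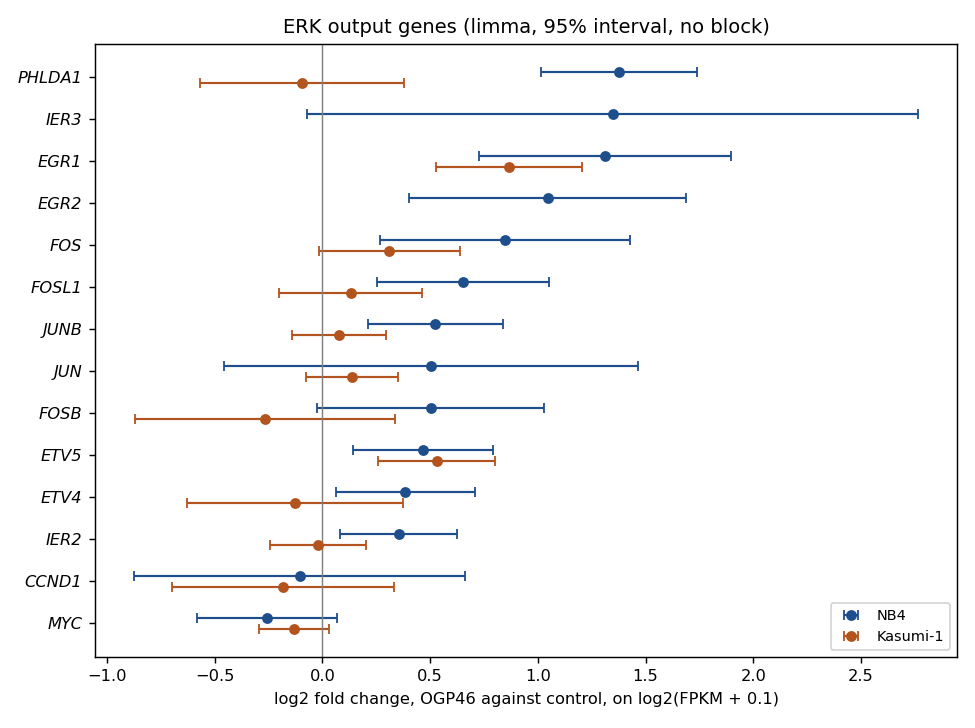
Log2 fold change with OGP46 of the ERK output genes tested in NB4, ordered by their value there, with 95% intervals from limma without the block, and the value in Kasumi-1 where the gene was tested. EGR1 is to the right of 0 in both lines, PHLDA1 in NB4 and close to 0 in Kasumi-1, and MYC is to the left of 0 in both with intervals that include 0.

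The promoters of 3 genes, DUSP1, DUSP2 and EGR1, are shown, and they differ in the response elements they carry. That of PHLDA1 is left out because all 250 bases before its RefSeq start site lie in exons of the gene. Whether the elements bear on the changes with OGP46 was not tested. DUSP1 had the log2 fold change nearest to 0 in NB4, and DUSP2 and EGR1 were higher there without overlap. In Kasumi-1 all 3 were higher without overlap, DUSP1 and DUSP2 by only 0.13 and 0.11 on the log2 scale. Each sequence is the 250 bases before the RefSeq start site (RefSeq, GRCh38.p14), 5′ to 3′ on the strand of the gene. Capitals mark matches on either strand to the cyclic AMP response element (CRE) TGACGTCA, its shorter core TGACG and the AP-1 site TGANTCA. They also mark the ETS site CCGGAA, the CArG box of SRF, the SP1 site GGGCGG and the TATA box TATAAA. The shorter ETS core GGAA was not marked or counted. The windows are DUSP1 at chr5:172771196-172771445 (minus strand), DUSP2 at chr2:96145441-96145690 (minus strand) and EGR1 at chr5:138465229-138465478 (plus strand).
DUSP1: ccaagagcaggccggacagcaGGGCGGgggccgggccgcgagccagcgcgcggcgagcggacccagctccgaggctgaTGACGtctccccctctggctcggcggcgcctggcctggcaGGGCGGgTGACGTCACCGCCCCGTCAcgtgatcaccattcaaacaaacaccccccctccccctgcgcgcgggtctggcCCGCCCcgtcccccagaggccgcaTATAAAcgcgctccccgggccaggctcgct
DUSP2: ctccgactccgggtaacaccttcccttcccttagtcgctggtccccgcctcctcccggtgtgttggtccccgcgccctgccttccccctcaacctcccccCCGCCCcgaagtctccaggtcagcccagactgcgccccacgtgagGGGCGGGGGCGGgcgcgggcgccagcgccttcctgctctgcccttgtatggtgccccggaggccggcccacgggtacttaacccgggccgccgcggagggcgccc
EGR1: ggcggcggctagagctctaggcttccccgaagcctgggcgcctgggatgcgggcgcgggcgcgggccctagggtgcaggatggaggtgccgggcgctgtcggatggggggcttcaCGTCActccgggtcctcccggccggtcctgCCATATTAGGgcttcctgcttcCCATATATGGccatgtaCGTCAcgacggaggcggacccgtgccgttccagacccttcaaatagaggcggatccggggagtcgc

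The DUSP1 window held 1 full CRE at -125 to -118 from the start site, TGACG cores at -172 and -111 beside those inside the CRE, 4 SP1 sites, 1 of which directly follows the CRE, and a TATA box at -30 to -25. The DUSP2 window held 3 SP1 sites and none of the other motifs searched. The EGR1 window held 2 CArG boxes, at -105 to -96 and -83 to -74, and TGACG cores at -135 and -66. Of all 35116 RefSeq windows of this length, 1.65% held a full CRE, 21.2% its core and 6.57% the AP-1 site. The ETS site CCGGAA was in 14.5%, a CArG box in 1.16%, the SP1 site in 42.6% and TATAAA in 10.7%. RefSeq windows were matched for 8 of the 10 feedback genes, all but DUSP4 and DUSP5. This match left out windows on chromosome 8, where DUSP4 lies. In the first window of each, 1 of the 8 (DUSP1) had a full CRE and 1 (SPRY2) the ETS site CCGGAA. An SP1 site was in 5 of them, and an AP-1 site or a CArG box in 0. The window of DUSP6 held none of the 7 motifs, and its 250 bases lie inside an exon of a longer GENCODE transcript of the gene, so it is not printed. All 250 bases of the first SPRED1 window also lie in exons of its gene, as do 87 bases for DUSP10 and 38 for SPRED2. SPRED1 and DUSP10 are among the 5 with an SP1 site. A match is a description of the letters and not of binding.

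For feedback genes that averaged 1 FPKM or more in both lines, the genes with the most similar pattern were sought by the correlation of log2 levels, each centred on the mean of its line, over the 12 samples and 8795 genes. These samples share the contrast of OGP46 with control and the differences between same-numbered samples, so the values are a description. DUSP6 was most like SSH1 (r = 0.993) and PTPRE (r = 0.984), DUSP4 most like DENND5B (r = 0.981) and VHL (r = 0.961), and DUSP2 most like IRF2BPL (r = 0.98) and ARHGAP25 (r = 0.973). DUSP5 was most like TOR4A (r = 0.955) and WDR44 (r = 0.947). SPRED1 was most like CSF2RB (r = 0.979) and IL13RA1 (r = 0.972), SPRED2 most like SPEN (r = 0.952) and TET3 (r = 0.949), and SPRY1 most like RPAP2 (r = 0.927) and GLRX2 (r = 0.92). SPRY2 had the lowest values, with SEMA3G (r = 0.815) and ZNF551 (r = 0.799). DUSP1, which averaged under 1 FPKM in NB4, and DUSP10, which did so in both lines, were left out. In the NB4 controls, sample 2 was the lowest of the 3 for 8 of the 10 feedback genes, and with OGP46 for 6 of 10.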

How the data were processed

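The authors selected poly(A) mRNA with oligo(dT), built libraries with a stranded kit per the labels, and deposited 1 FPKM value per gene symbol and sample. The processing notes of the submitters name Trimmomatic, HISAT2, Cufflinks, HTSeq and hg38, without versions. The annotation, the strand setting and the tool that gave the FPKM are not given in the sources used here. FPKM hold no read totals, so the depth is unknown, no counting interval is given, and precision rests on 3 samples a group. Symbols turned into dates (27 per sample) were left out.

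From the FPKM, log2(FPKM + 0.1) was compared by limma (3.58.1, under R 4.3.3) with trended empirical Bayes moderation, over genes that averaged 0.1 FPKM or more across the samples compared. All 10 feedback genes passed this filter in each comparison. Fold changes are on the log2(FPKM + 0.1) scale, which understates those of low genes. The p-values were adjusted over all genes tested (Benjamini-Hochberg), and a gene passed at an adjusted p below 0.05 and, except for the interaction, a log2 fold change of 0.58 or more up or down, the limits of the study's methods. An exact test on 3 against 3 samples could not go below 0.1. The script was tested on simulated data.

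Same-numbered samples deviated together within each line. The correlations of their deviations across genes were 0.355, 0.622 and 0.197 in NB4 and 0.218, 0.157 and 0.395 in Kasumi-1, so the replicate number was also used as a block, which the study's methods do not name. Between the lines they were -0.049, 0.018 and -0.005, and there the numbers pair nothing. Within a line, the highest correlation of differently numbered control and OGP46 samples was 0.224 in NB4, above that of pair 3, and 0.101 in Kasumi-1. Over genes that averaged 5 FPKM or more, the lowest same-numbered value was 0.439 in NB4 and 0.416 in Kasumi-1. The highest value of differently numbered samples was then 0.289 and 0.081. Gene positions and exon overlaps come from GENCODE release 29 (GRCh38). The feedback genes and lists were chosen with earlier results of these data known. Named are all 10 feedback genes, the genes of the MAP kinase lists that passed in a line with or without the block, the other family members, and the 2 genes most like each feedback gene. The result of 1 marker gene is not reported here, and its list was counted without it.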

Additional observations from a re-analysis of the deposited data

Results flagged for a closer look

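The change with OGP46 differed between the lines for 2 feedback genes in the interaction test with the replicate block. It was 0.908 larger in NB4 on the log2 scale for DUSP6 and 0.729 larger for DUSP4. Neither passed without the block, and DUSP4 no longer passed with it when any same-numbered pair was left out.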

How the results depend on the processing

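Of the NB4 feedback genes, 0 passed with no filter on low values, TPM scaling, median centring, quantile normalization or moderation without a trend (6, 0, 0, 0 and 4 of all genes tested passed in these settings, in that order), 1 (DUSP5) with robust moderation, and 4 in the blocked fit without pair 1, a setting chosen after seeing the data. Leaving out 1 sample gave 0 to 2. Of the NB4 pathway genes, 0 passed in those same first 5 settings, 6 with the replicate block, 4 with the block and median centring, 5 in the joint model of the 12 samples, and 0 to 4 without 1 sample. In Kasumi-1, 1 pathway gene (EGR1) passed with the minimum mean raised to 1 FPKM, under TPM scaling or median centring, with the replicate block and with the block with median centring, and 0 to 1 without 1 sample. For the interaction, 2 feedback genes passed with the block and 1 with the block and median centring or, in fits chosen after seeing the data, with the block and any pair left out. Of the pathway genes, 2 passed the interaction test with the block and 1 with the block and median centring or with a pseudocount of 1. In NB4, DUSP4 passed beside DUSP5 and DUSP6 with the block, with the block and median centring and in the joint model. In Kasumi-1 the block changed no call of the feedback genes. Between the lines it changed none of theirs, and the numbers do not pair those samples.

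Signs turned as follows, on the log2 scale. DUSP1 in NB4 was -0.001 with a pseudocount of 0.01, -0.11 with TPM scaling, -0.22 with median centring with or without the block, -0.19 with quantile normalization and -0.29 to 0.32 without 1 sample. SPRY2 was -0.22 to 0.004 without 1 sample in NB4 and, in Kasumi-1, -0.04 with median centring, with or without the block, -0.037 with quantile normalization and -0.023 to 0.068 without 1 sample. Without 1 sample in Kasumi-1, DUSP4 was -0.029 to 0.23 and DUSP5 -0.017 to 0.26. The interaction of DUSP10 was -0.093 with a pseudocount of 0.01, -0.057 with TPM scaling, -0.095 with median centring, with or without the block, -0.16 with quantile normalization and -0.14 to 0.18 without 1 sample. That of SPRED1 was -0.06, -0.072 and -0.084 under the 3 scalings, -0.072 with the block and median centring and -0.03 to 0.22 without 1 sample. That of SPRED2 was -0.057, -0.063 and -0.043 under the same scalings, -0.063 with the block and median centring and -0.002 to 0.23 without 1 sample. The interaction of DUSP1 was -0.42 to 0.19 without 1 sample. DUSP6 between the lines was 0.061 with TPM scaling and -0.31 to 0.04 without 1 sample. The causes were not tested.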
